A study of Mus musculus with 24 samples.

Results

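The 10 genes described here are keratins that mark the layers of the mammary duct and of the skin above it: Krt7, Krt8, Krt18 and Krt19 of luminal epithelium, Krt5, Krt14, Krt15 and Krt17 of basal epithelium, and Krt10 and Krt80, which are found in differentiating skin. They were taken by gene symbol from the deposited tables, where all 10 have a row, out of 54 keratin genes and 55288 genes in all. The tables cover D2.1 and D2A1, a pair of mouse mammary tumor cell lines derived from the D2 hyperplastic alveolar nodules of BALB/c mice. RNA was sequenced from both lines grown in culture (3 libraries each) and from their tumors in the mammary fat pad of female mice. The paper used mice of 8 to 12 weeks for its tumor studies, and their age at collection is not given. The hosts were immunocompetent BALB/c mice (4 tumors per line) and SCID-beige mice, which lack T and B cells and have defective NK cells (5 tumors per line). A tumor was begun with 1000000 cells and taken at about 500 mm3, and each library came from an individual tumor. The labels name no altered gene in the implanted lines. By the strain name in the paper, SCID-beige hosts carried the scid allele of Prkdc and the beige allele of Lyst. Each arm rests on a single line, so a difference is one between these 2 lines. The labels give no time from implantation to collection. Tumors were taken by size, and the paper describes D2.1 tumors as dormant at first. In tumors, time in the host therefore cannot be told apart from line.

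Keratins are the intermediate filament proteins of epithelial cells. A filament is built from pairs of 1 type I and 1 type II keratin, so the proteins work as partners: Krt8 with Krt18 or Krt19 in simple and luminal epithelium, Krt5 with Krt14 in basal cells, and Krt1 with Krt10 once a skin cell leaves the basal layer. In the mammary gland, Krt8 and Krt18 are standard markers of luminal cells, and Krt5 and Krt14 of basal and myoepithelial cells. Tumors that lose epithelial traits often lose keratins, whereas vimentin, another intermediate filament protein, is typical of mesenchymal cells.

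Library totals ran from 16837260 to 24818234 counts in culture and from 13566949 to 18355153 in tumors, so that 3 counts, taken as the limit of detection, correspond to 0.121 to 0.178 CPM (counts scaled to a common library total) in culture and 0.163 to 0.221 CPM in tumors. This limit covers counting error only. CPM values were scaled by TMM within each table. Culture and tumor tables were counted with different gene models, so levels were compared only within a table. Levels of different genes were compared as FPKM, which divides by gene length. Tumors are mixtures of tumor and host cells, and fewer cells of a type cannot be told apart from less RNA per cell. Summed leukocyte markers reached 261 to 773 CPM in tumors, with the macrophage receptor gene Csf1r the most abundant, against at most 1.68 CPM in culture. Host cell markers also differed between tumors of the lines. Summed endothelial markers, led by Pecam1, were at 111 to 178 CPM in D2.1 and 255 to 311 CPM in D2A1 tumors with BALB/c hosts (5 of 8 genes lower in D2.1, 1 higher), and at 77.7 to 118 against 230 to 308 CPM with SCID-beige hosts (6 lower, 1 higher). Leukocyte markers were at 598 to 773 against 453 to 667 CPM (4 of 9 tested higher, 1 lower) and at 302 to 767 against 261 to 381 CPM (4 of 7 higher, 0 lower). Skeletal muscle markers were at 66.5 to 423 against 12.9 to 96.8 CPM (2 of 11 tested higher, 0 lower) and at 3.25 to 353 against 7 to 25.6 CPM (3 of 5 higher, 0 lower). Adipocyte markers were at 38.8 to 854 against 94.1 to 435 CPM and at 4.83 to 149 against 53.6 to 235 CPM. Of these adipocyte genes 0 were called between the lines in either host, and D2.1 tumor 1 of BALB/c mice held the 854 CPM. Over all genes, 32.6% were called in BALB/c and 32.1% in SCID-beige tumors. The shares called were 75% and 87.5% for endothelial, 55.6% and 57.1% for leukocyte and 18.2% and 60% for skeletal muscle markers. The part of host cells in the keratin differences between tumors was not tested. D2.1 tumors 1 and 4 of BALB/c mice stood apart, because they held transcripts of cornified skin. Tumor 1 also held transcripts of most milk genes listed, and tumor 4 mainly that of Glycam1. Results that rest on these tumors are given with and without them, a choice made after seeing the data.

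Krt8, the luminal type II keratin, was the most abundant keratin transcript in D2.1 cells, and it was higher in D2.1 than in D2A1 in all 3 settings. In culture it stood at 2871, 3404 and 1815 CPM in D2.1 cells and at 145.8, 138.1 and 29.2 CPM in D2A1 cells, 25.8-fold higher by the means. The groups were far apart, and D2A1 replicate 3 was the lowest library. The log2 fold change was 4.69 (SE 0.60, adjusted p = 3.1e-04, edgeR's quasi-likelihood test with Benjamini-Hochberg adjustment over all genes tested). Of 7 keratins of the 10 that passed the filter on low counts in culture, 7 were called, 4 higher and 3 lower in D2.1, where 44.9% of all genes tested were called (24.2% higher and 20.7% lower). None of the 7 overlapped between the lines, as was the case for 56.7% of all genes. The remaining 3, Krt5, Krt7 and Krt17, had at most 11 counts in any culture library.

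In tumors of BALB/c mice, Krt8 was at 408.7, 303.5, 357.8 and 290.9 CPM in D2.1 and at 230.7, 199.7, 166.3 and 133.5 CPM in D2A1. Every D2.1 tumor exceeded every D2A1 tumor, but the difference of 1.86-fold was far smaller than in culture (log2 0.90, SE 0.19, adjusted p = 0.0049). In SCID-beige mice the D2.1 tumors held 396.9, 463.3, 275.8, 944.2 and 358.6 CPM and the D2A1 tumors 256.9, 322.6, 166.9, 168.7 and 205.2 CPM. Tumor 4 of D2.1 held the highest value and the groups overlapped, since D2.1 tumor 3 fell below D2A1 tumor 2. The difference passed the test (log2 1.12, SE 0.30, adjusted p = 0.012). Of the 8 keratins tested in each host, 5 were called in BALB/c mice, 3 higher and 2 lower in D2.1, where 32.6% of all genes were called (16.8% higher and 15.8% lower). In SCID-beige mice 5 were called, 2 higher and 3 lower, where 32.1% of all genes were (17.2% higher and 14.8% lower). The lines did not overlap for 4 of the 8 in either host, against 34.9% and 23.9% of all genes.

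Krt18, the type I partner of Krt8, changed sides between culture and tumor. In culture it was higher in D2.1, at 890.9, 1200.0 and 498.9 CPM against 191.0, 190.2 and 99.6 CPM in D2A1 (log2 2.43, SE 0.36, adjusted p = 7.3e-04). It was lower in D2.1 tumors of BALB/c hosts, at 57.5, 9.34, 25.8 and 32.9 CPM against 300.6, 300.7, 418.0 and 395.7 CPM in D2A1. These groups lay far apart, with an 11.3-fold higher mean in D2A1 (log2 -3.49, SE 0.45, adjusted p = 2.6e-04). In SCID-beige tumors the D2.1 values were 51.3, 12.8, 25.95, 170.7 and 24.9 CPM and the D2A1 values 433.2, 541.8, 318.0, 262.7 and 319.4 CPM. Again no D2.1 tumor reached a D2A1 tumor, although tumor 4 of D2.1 came closest (log2 -2.71, SE 0.57, adjusted p = 0.0026). All these calls for Krt8 and Krt18 were kept when any 1 library was left out, and when D2.1 tumors 1 and 4 of BALB/c mice were left out together.

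**Figure D1:**
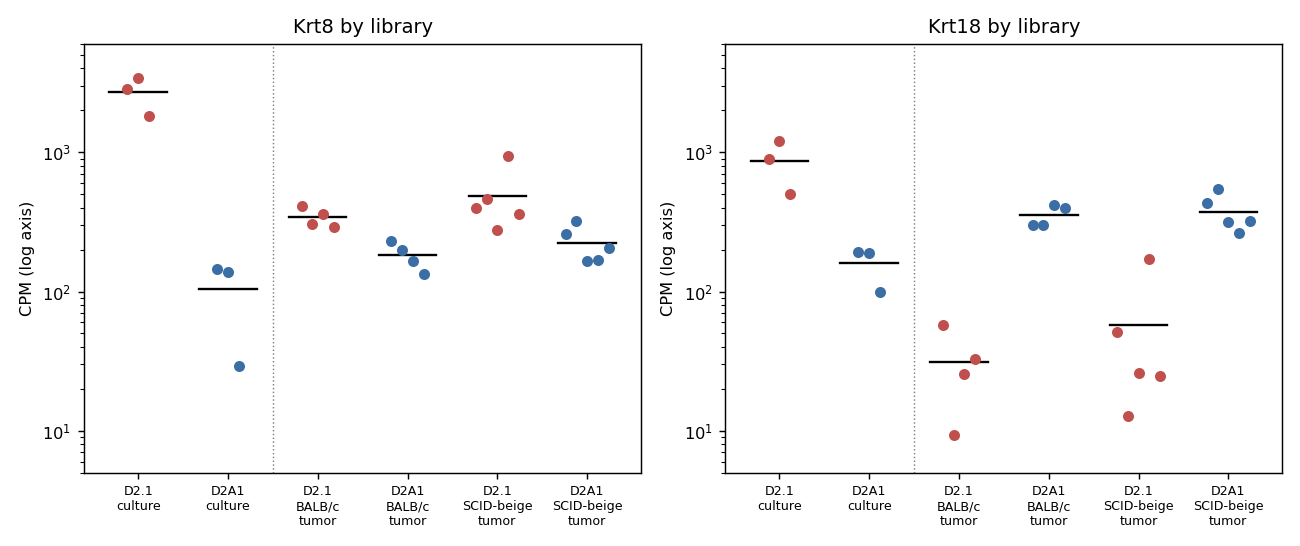
Krt8 (left) and Krt18 (right) in each library, in CPM on a log axis, for the 6 groups. Points are libraries, red for D2.1 and blue for D2A1, and bars are group means. Krt8 was higher in D2.1 on average in all 3 settings, while Krt18 was higher in D2.1 in culture (498.9 CPM or more) and lower in D2.1 in tumors (170.7 CPM or less). The dotted line parts culture and tumor libraries, which come from separate tables.

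Whether the difference between the lines itself depended on the setting was tested as a line by setting interaction on joined raw counts, in which an effect of the table on a gene that is shared by both lines cancels. For Krt18 the D2.1 over D2A1 difference was 5.12 log2 units lower in SCID-beige tumors than in culture (interaction -5.12, adjusted p = 4.9e-04) and 5.88 lower in BALB/c tumors (-5.88, adjusted p = 2.3e-05). For Krt8 it was -3.55 (adjusted p = 7.4e-04) and -3.76 (adjusted p = 3.0e-04). The interaction was called for 12.8% of genes tested with SCID-beige tumors and 14.4% with BALB/c tumors. Both genes were called under every alternative tried. The 2 interactions share the culture libraries.

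The ratio of Krt8 to Krt18 within a library sets the partners side by side per transcript length. In culture, Krt8 FPKM was 2.50, 2.20 and 2.82 times Krt18 FPKM in D2.1 cells and 0.592, 0.563 and 0.227 times in D2A1 cells. In BALB/c mice it was 5.21, 23.9, 10.2 and 6.49 times in D2.1 tumors and 0.563, 0.487, 0.292 and 0.248 times in D2A1 tumors. In SCID-beige mice it was 5.68, 26.5, 7.80, 4.06 and 10.6 times in D2.1 tumors and 0.435, 0.437, 0.385, 0.471 and 0.471 times in D2A1 tumors. The ratio was above 1 in every D2.1 library and below 1 in every D2A1 library.

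As log2 values with a pseudocount of 0.1 FPKM, the ratio in BALB/c tumors was 3.24 ± 0.96 in D2.1 and -1.41 ± 0.57 in D2A1 (SD, n = 4 each), a 25.2-fold difference in the ratio (2-sided exact permutation p = 0.0286, 0.0429 adjusted over 3 ratios). In SCID-beige tumors it was 3.12 ± 1.03 and -1.19 ± 0.12 (SD, n = 5 each), a 19.7-fold difference (exact permutation p = 0.00794, adjusted 0.0238). In culture it was 1.32 ± 0.18 and -1.24 ± 0.78 (SD, n = 3 each, exact permutation p = 0.10, the smallest that 3 against 3 allows). Paired by replicate number the tumor ratios gave an adjusted exact permutation p of 0.188 in either host, with the same differences, and no permutation of 4 or 5 pairs can pass the threshold.

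**Figure D2:**
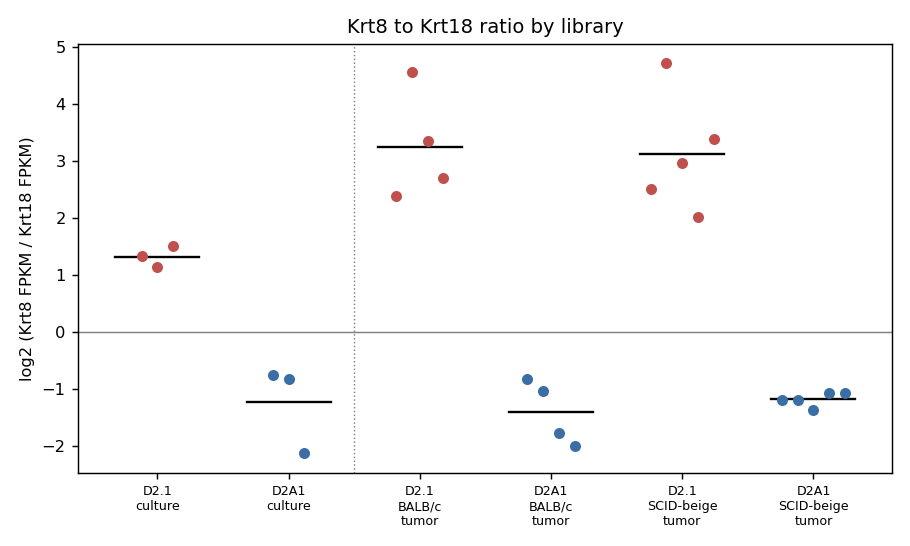
Log2 ratio of Krt8 FPKM to Krt18 FPKM in each library (a pseudocount of 0.1 was added to both), red for D2.1 and blue for D2A1, with group means as bars. All 12 D2.1 libraries lie above 0 and all 12 D2A1 libraries below, and the D2A1 tumors of SCID-beige mice lie closest together (SD 0.12).

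Krt8 and Krt18 are neighbours in the genome. In the GRCm38 annotation Krt8 occupies chr15:101996698-102004482 on the minus strand and Krt18 chr15:102028180-102032027 on the plus strand. Their starts lie 23.7 kb apart, the genes point away from each other, and 0 annotated genes lie between them. Because these neighbours differed between the lines in opposite directions in tumors, their promoters (250 bases before to 50 after the RefSeq start, GRCm38.p6) are shown. Krt8 is read from chr15:102004293-102004592, minus strand, and Krt18 from chr15:102027966-102028265, plus strand. Capitals mark matches to any of 5 motifs: TATAAA on the gene's strand, and, on both strands, CACCTG (the E-box bound by Snai and Zeb factors), GCCNNNGGC (AP-2), GGGCGG (Sp1) and TGANTCA (AP-1).
Krt8: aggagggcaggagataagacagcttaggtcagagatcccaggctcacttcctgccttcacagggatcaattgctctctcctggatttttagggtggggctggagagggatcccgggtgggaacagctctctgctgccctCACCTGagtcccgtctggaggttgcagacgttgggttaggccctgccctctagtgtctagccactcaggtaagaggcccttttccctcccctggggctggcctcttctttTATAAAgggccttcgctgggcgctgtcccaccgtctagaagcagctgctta
Krt18: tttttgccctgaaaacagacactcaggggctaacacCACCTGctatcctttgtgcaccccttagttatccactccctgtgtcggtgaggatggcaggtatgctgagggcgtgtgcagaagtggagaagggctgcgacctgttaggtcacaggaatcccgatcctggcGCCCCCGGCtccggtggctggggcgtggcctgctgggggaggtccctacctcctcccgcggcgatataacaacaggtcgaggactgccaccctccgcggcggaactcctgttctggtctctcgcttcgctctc
Both windows hold 1 CACCTG, from base 140 to 145 in Krt8 and from base 37 to 42 in Krt18. Krt8 has a TATAAA from base 250 to 255, which spans the RefSeq start, and Krt18 a GCCNNNGGC match from base 168 to 176. Most of the Krt8 window lies inside the gene as annotated, which starts at 102004482 on the minus strand. Such matches describe the letters only. CACCTG occurs in 20.2% of the 32851 promoter windows of the table, TATAAA in 8.32%, GCCNNNGGC in 16.6%, GGGCGG in 35.7% and TGANTCA in 7.81%. A window was found for 6 of the 10 keratins, and 5 of them hold CACCTG (Krt5, Krt7, Krt8, Krt10 and Krt18, but not Krt14). The Krt14 window (chr11:100205981-100206280) lies inside the gene as annotated, which starts at 100207548 on the minus strand. The Krt7 window (chr15:101412153-101412452) also lies inside its gene, which starts at 101411043 on the plus strand. In Krt7 a GGGCGG match overlaps a GCCNNNGGC match.

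Seen as shares of all keratin transcripts (FPKM summed over the keratin genes), the lines had different make-ups. D2.1 cells in culture held a keratin total of 1410 to 2540 FPKM, of which Krt8 made 67.8 to 72.6% and Krt18 25.7 to 30.8%. D2A1 cells held 105 to 244 FPKM, with Krt18 at 57.7 to 73.8%, Krt8 at 16.8 to 34.2% and Krt80 at 6.22 to 8.06%. The pair Krt8 and Krt18 made at least 90.6% of the keratin total in every culture library.

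In D2A1 tumors the order remained Krt18 (59.0 to 73.2%) before Krt8 (18.1 to 33.2%), and the pair still made 91.3 to 95.3%. In D2.1 tumors the pair made only 39.4 to 84.9%, with Krt14 as the main further keratin at 5.07 to 58.8%. Krt14 FPKM exceeded Krt18 FPKM in 7 of the 9 D2.1 tumors, the exceptions being tumor 1 of BALB/c mice and tumor 4 of SCID-beige mice, and in 0 of the 9 D2A1 tumors. The highest share, 58.8%, was in tumor 3 of SCID-beige mice, where Krt14 (240.3 FPKM) exceeded Krt8 (142.5 FPKM).

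**Figure D3:**
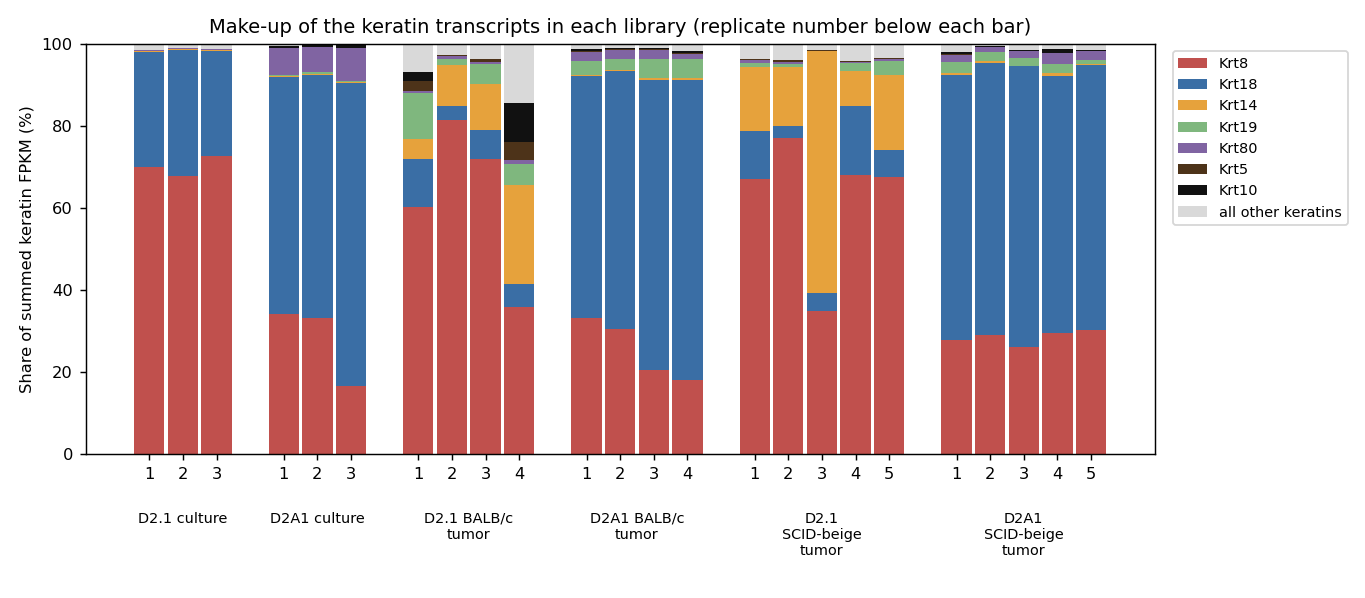
Share of each keratin in the summed keratin FPKM of each library, in percent, with the replicate number under each bar. Krt18 leads in all 12 D2A1 libraries and Krt8 in 11 of the 12 D2.1 libraries, and Krt14 is a visible share in D2.1 tumors only (5.07% or more, against at most 0.511% in D2A1 tumors). Shares of culture and tumor libraries rest on different gene lengths.

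Krt19, a type I luminal keratin that can stand in for Krt18, was lower in D2.1 cells in culture, at 0.272, 0.221 and 0.107 CPM against 1.15, 1.76 and 0.532 CPM in D2A1 cells. The groups did not overlap, but the D2.1 values rest on 2 to 5 counts (log2 -2.47, SE 0.59, adjusted p = 0.0087). In BALB/c tumors D2.1 held 37.5, 2.65, 11.7 and 20.9 CPM and D2A1 11.9, 9.16, 18.5 and 17.1 CPM, and the D2.1 values spread on both sides of the D2A1 values (log2 0.37, adjusted p = 0.67). In SCID-beige tumors D2.1 held 2.70, 1.70, 0.518, 15.1 and 9.19 CPM and D2A1 12.3, 12.3, 5.58, 6.55 and 3.59 CPM (log2 -0.46, adjusted p = 0.65). Its spread over the D2.1 tumors was 14.2-fold in BALB/c mice and 29.1-fold in SCID-beige mice, against 2.02-fold and 3.43-fold in D2A1.

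Krt7, the type II keratin of ducts and other simple epithelia, was low throughout. It ranged from 0.177 to 0.598 CPM in D2.1 and 0.058 to 0.510 CPM in D2A1 culture. In tumors it ranged from 0.115 to 4.82 CPM in D2.1 and from 0.315 to 3.39 CPM in D2A1. The lines overlapped in both hosts (log2 0.23 in BALB/c and -0.23 in SCID-beige mice, adjusted p = 0.82 in each). The highest value of Krt7 and of Krt19 was in tumor 1 of D2.1 in BALB/c mice, and without that tumor both log2 differences in that host turned to D2A1 (-0.38 and -0.27).

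Krt14, the type I basal keratin, had the largest log2 difference between the lines among the keratins tested in tumors of either host. In culture it was at 7.62, 8.98 and 5.14 CPM in D2.1 and 0.864, 0.624 and 0.106 CPM in D2A1 cells, with no overlap (log2 3.77, SE 0.52, adjusted p = 4.9e-04). Tumors in BALB/c mice held 24.7, 26.8, 40.4 and 140.0 CPM for D2.1 and 1.45, 1.55, 2.05 and 1.89 CPM for D2A1. Every D2.1 tumor was far above every D2A1 tumor, 33.4-fold by the means (log2 5.06, SE 0.61, adjusted p = 1.6e-04). In SCID-beige tumors D2.1 held 66.5, 63.4, 334.8, 83.9 and 69.9 CPM and D2A1 2.82, 3.61, 0.627, 2.101 and 1.07 CPM, 60.5-fold by the means (log2 5.92, SE 0.63, adjusted p = 1.0e-05). The line by setting interaction did not pass for Krt14 (log2 2.16, adjusted p = 0.19 for SCID-beige and 1.31, adjusted p = 0.42 for BALB/c tumors). The call held in all 3 settings under every alternative that gave a value (DESeq2 gave no adjusted p for Krt14 in SCID-beige tumors), including without D2.1 tumors 1 and 4 of BALB/c mice. With 1 tumor left out, the lowest log2 values were 4.14 without D2.1 tumor 4 in BALB/c mice and 5.11 without D2.1 tumor 3 in SCID-beige mice. Of 9 other genes listed as markers of myoepithelium, 2 were higher in D2.1 and 0 lower of 5 tested in culture. In BALB/c tumors 1 was higher and 1 lower of 9, and in SCID-beige tumors 1 and 3 of 8. These are 40%, 22.2% and 50% called, against 44.9%, 32.6% and 32.1% of all genes. Of 16 listed markers of mammary luminal epithelium, 6 were higher in D2.1 and 2 lower of 8 tested in culture (100% called). In BALB/c tumors 6 were higher and 1 lower of 15 (46.7%), and in SCID-beige tumors 6 and 0 of 10 (60%). Their sums, led by Trps1, were 238 to 325 CPM in D2.1 against 74.9 to 116 CPM in D2A1 tumors of BALB/c mice. In SCID-beige mice they were 223 to 332 against 63.6 to 128 CPM.

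Krt5, the type II partner of Krt14, did not follow it. It had 0 counts in all 6 culture libraries, where up to 203 counts of Krt14 were found in D2.1. Among BALB/c tumors, D2.1 held 17.2, 1.21, 3.89 and 40.2 CPM and D2A1 1.22, 1.49, 3.02 and 2.66 CPM. Tumors 1 and 4 of D2.1 were high and tumor 2 lay below all D2A1 tumors. The difference passed the test (log2 2.90, SE 0.88, adjusted p = 0.029), but not with the replicate number as a block (log2 2.097, adjusted p = 0.113). It also did not pass without tumors 1 and 4, the highest in Krt5 (log2 0.25, adjusted p = 0.81), a choice made after seeing the data. Without tumor 1 it was 2.85 (adjusted p = 0.055), without tumor 4 1.86 (adjusted p = 0.099), and leaving out any single D2A1 tumor also ended the call (adjusted p = 0.052 to 0.077). In SCID-beige tumors D2.1 held 1.11, 3.75, 0.863, 1.85 and 1.13 CPM and D2A1 1.72, 0.208, 0.906, 0.927 and 0 CPM (log2 1.19, adjusted p = 0.25). In D2.1 tumors of SCID-beige mice Krt14 was thus at 43.4 to 240.3 FPKM beside 0.398 to 1.65 FPKM of Krt5.

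Krt15, a type I keratin of basal cells and of hair follicle stem cells, was found in D2.1 cells in culture at 8.10, 8.14 and 1.98 CPM. D2A1 cells held 1 count in all 3 libraries together, giving a ratio of 304 (95% exact counting interval 54.1 to 12000). The groups did not overlap, and the gene was called (adjusted p = 2.4e-04). In tumors it was low in both lines and was not tested between them. D2.1 held 4.28, 0.181, 0.870 and 4.94 CPM in BALB/c and 0 to 1.06 CPM in SCID-beige mice, with tumors 1 and 4 the high ones, and D2A1 held at most 0.557 CPM. The line by setting interaction was -5.83 for SCID-beige tumors (adjusted p = 0.061) and -4.77 for BALB/c tumors (adjusted p = 0.11). DESeq2 called both (adjusted p = 0.014 and 0.032). Without D2.1 tumors 1 and 4 of BALB/c mice, a choice made after seeing the data, the BALB/c value was -7.06 and passed edgeR's test (adjusted p = 0.011). The SCID-beige value of Krt15 passed it with the replicate block (adjusted p = 0.045) and without D2.1 tumor 2, D2.1 tumor 4, D2A1 tumor 2 or D2.1 culture library 3 (adjusted p = 0.041 to 0.050).

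Krt17, a type I keratin of basal cells and wounded skin, had 1 count in all culture libraries together. With BALB/c hosts, D2.1 tumors held 3.75, 0.181, 0.174 and 11.04 CPM and D2A1 0.290, 0.062, 0 and 0.721 CPM. Tumors 1 and 4 of D2.1 were again the high ones. In SCID-beige tumors the ranges were 0.117 to 2.98 CPM in D2.1 and 0.208 to 2.41 CPM in D2A1, with the highest values in D2.1 tumor 4 and D2A1 tumor 1. Krt17 did not pass the filter on low counts in either line comparison of tumors.

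Krt10, which replaces Krt14 as skin cells differentiate, separated the lines in culture and in SCID-beige mice. D2.1 cells had 0 counts in all 3 culture libraries and D2A1 cells 1.56, 1.304 and 1.22 CPM, so Krt10 was at least 9.32-fold lower in D2.1 (against 3 counts per library, adjusted p = 3.6e-04). In SCID-beige tumors D2.1 held 0, 0, 0.288, 0 and 0.189 CPM and D2A1 2.48, 0.833, 1.12, 2.90 and 1.70 CPM. No D2.1 tumor reached a D2A1 tumor (log2 -4.13, SE 0.83, adjusted p = 0.0018), and the call was kept under all 16 alternatives. In BALB/c tumors D2.1 held 10.6, 0, 0.116 and 50.8 CPM and D2A1 2.09, 1.86, 1.51 and 2.50 CPM. D2.1 tumors 2 and 3 were below all D2A1 tumors and tumors 1 and 4 above them (log2 2.95, SE 1.40, adjusted p = 0.135). Without tumor 2 the difference passed (log2 3.36, adjusted p = 0.032). Without tumors 1 and 4, a choice made after seeing the data, the difference turned to -4.93 (adjusted p = 0.0065).

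Those 2 tumors held other transcripts of cornified epidermis. Krt1, the partner of Krt10, had 92 counts in tumor 1 and 699 in tumor 4, and 0 in 15 of the 16 other tumors, the exception being D2A1 tumor 1 of SCID-beige mice with 22. Lor, which encodes loricrin of the cornified envelope, had 243 and 310 counts against at most 7. Krt77, a keratin of skin and sweat ducts, had 185 and 69 counts against at most 2. Of 25 epidermal genes listed, Lgals7 and Sfn were found in all tumors, and Lgals7 was the most abundant, at 38.6 to 525 CPM. Summed over the other 23, a choice made after seeing the values, tumors 1 and 4 reached 57.7 and 122 CPM against 3.40 to 12.5 CPM in the 16 other tumors. Of these 23 genes, 15 and 20 had more than 3 counts in tumors 1 and 4, against 3 to 10 in the others, where D2A1 tumor 1 of SCID-beige mice had the 10. The full list of 25 summed to 242 to 556 CPM in D2.1 tumors and 49.1 to 254 CPM in D2A1 tumors. The part of skin cells in the Krt5, Krt10, Krt15 and Krt17 values of the 2 tumors was not tested.

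In SCID-beige tumor 3 of D2.1, which held the most Krt14 (334.8 CPM), Krt1 had 0 counts, Krt77 2, Lor 3 and Krt10 5, and the epidermal genes other than Lgals7 and Sfn summed to 8.92 CPM. The same tumor held the most Lgals7, the galectin of stratified epithelia, of all tumors (525 CPM), and with it the full epidermal list summed to 556 CPM. The part of skin cells in the Krt14 values was not tested. Milk genes, listed as markers of secretory mammary epithelium, summed to 505 and 60.3 CPM in D2.1 tumors 1 and 4 of BALB/c mice. They summed to at most 5.97 CPM in all other tumors. In tumor 1, 9 of the 10 genes had counts, led by Csn2 at 209 CPM. In tumor 4 only 3 had counts, and Glycam1 alone made 59.5 of the 60.3 CPM. The part of host gland cells in the Krt7, Krt8, Krt18 and Krt19 values of those tumors was not tested. Hair follicle and sebaceous gland markers summed to at most 6.55 CPM in any tumor.

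**Figure D4:**
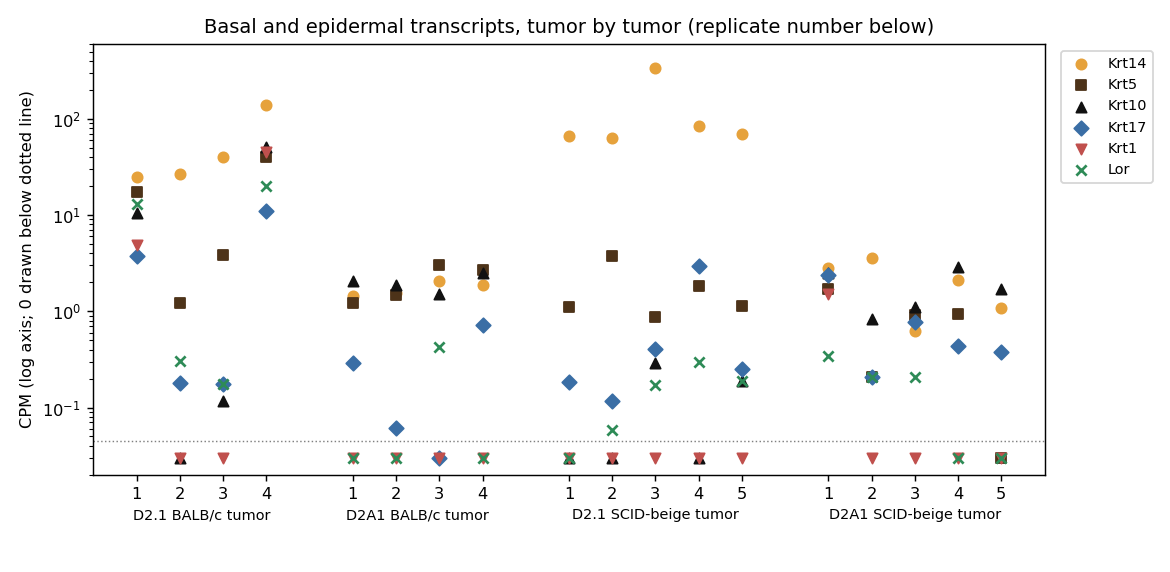
Krt14, Krt5, Krt10, Krt17, Krt1 and Lor in each of the 18 tumors, in CPM on a log axis. Values of 0 are drawn below the dotted line. Krt14 stands at 24.7 CPM or more in all 9 D2.1 tumors, while Krt5, Krt10, Krt1 and Lor are high together in tumors 1 and 4 of D2.1 in BALB/c mice.

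Krt80, a type II keratin of differentiated epithelial cells, was lower in D2.1 in all 3 settings. In culture D2.1 held 6.42, 8.01 and 5.09 CPM and D2A1 28.0, 25.3 and 13.8 CPM (log2 -1.78, SE 0.29, adjusted p = 0.0013). With BALB/c hosts, D2.1 tumors held 5.99, 3.37, 3.36 and 10.2 CPM and D2A1 19.2, 17.4, 23.4 and 11.2 CPM, close at D2.1 tumor 4 and D2A1 tumor 4 but without overlap (log2 -1.63, SE 0.39, adjusted p = 0.0092). In SCID-beige tumors D2.1 held 6.26, 4.16, 0.691, 3.40 and 3.08 CPM and D2A1 22.6, 19.7, 14.2, 19.6 and 17.7 CPM (log2 -2.42, SE 0.40, adjusted p = 4.5e-04). These calls were kept under every alternative, and the line by setting interaction did not pass for Krt80 (adjusted p = 0.57 for SCID-beige and 0.90 for BALB/c tumors).

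**Figure D5:**
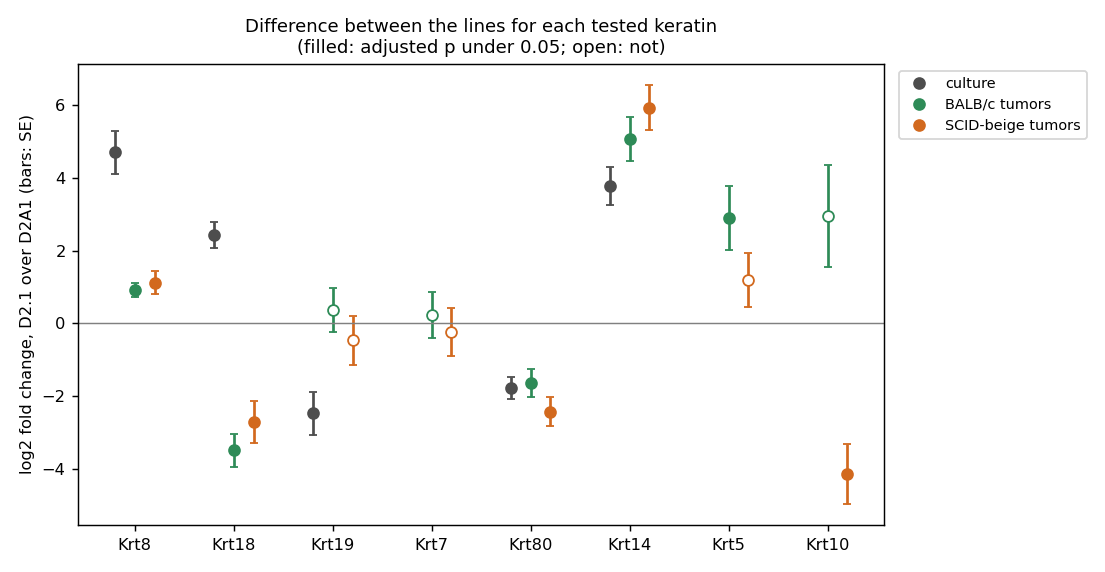
Log2 fold change of D2.1 over D2A1 (y axis, bars are SE) for the keratins that passed the filter on low counts, in culture and in tumors of each host. Filled points have an adjusted p under 0.05. Krt18 lies above 0 in culture (2.43) and below 0 in both hosts (-3.49 and -2.71), and Krt14 lies above 0 throughout. Krt10 and Krt15 in culture are left out because 1 line had at most 1 count.

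The immune status of the host was not accompanied by a called change in these keratins. Between BALB/c and SCID-beige hosts, 0 of 8 keratins tested in D2.1 tumors and 0 of 8 in D2A1 tumors passed edgeR's test, where 0.891% and 1.17% of all genes did. At an unadjusted p under 0.05 there were 3 and 2, against 9.97% and 10.1% of all genes. DESeq2 called 1 and 0 keratins, where it called 461 of 14929 and 565 of 14572 genes. The 1 was Krt5 in D2.1 tumors (log2 3.19 higher in BALB/c mice, adjusted p = 0.106 by edgeR and 0.022 by DESeq2), and without tumors 1 and 4 its log2 value was 0.57. Without D2.1 tumor 2 of BALB/c mice edgeR called Krt5 too (log2 3.58, adjusted p = 0.023). Krt14 was at a log2 of -1.05 in D2.1 tumors of BALB/c against SCID-beige mice (adjusted p = 0.66). The line by host interaction, called for 0.0187% of all genes, passed for 0 of 10 keratins (2 at an unadjusted p under 0.05, against 8.45% of all genes). DESeq2 called it for 1 keratin, where it called 102 of 16036 genes. That 1 was Krt10 (log2 7.08, adjusted p = 0.24 by edgeR and 0.049 by DESeq2), whose value without tumors 1 and 4 was -0.78. In the line by setting interaction Krt10 was called for BALB/c tumors (log2 10.65, adjusted p = 0.041) and lost the call without tumors 1 and 4 (2.77), with the replicate block (8.997, adjusted p = 0.098) and when most single libraries were left out (12 of 14).

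Of the 44 keratin genes beyond these 10, 21 had under 4 counts in every library, and 10 reached a mean of 1 CPM in a group. Krt16, a partner of Krt6 in stressed and wounded epithelium, was higher in D2.1 throughout. It averaged 9.73 ± 3.80 against 0.325 ± 0.348 CPM in culture (SD, n = 3, log2 4.91, adjusted p = 5.3e-04). In BALB/c tumors it averaged 8.52 ± 3.73 against 0.510 ± 0.177 CPM (SD, n = 4, log2 4.04, adjusted p = 8.2e-05), and in SCID-beige tumors 13.9 ± 5.99 against 1.47 ± 0.773 CPM (SD, n = 5, log2 3.23, adjusted p = 5.2e-05). Its usual partners were nearly absent: Krt6a and Krt6b had 0 to 2 counts in culture. In tumors they were highest in D2.1 tumor 4 of BALB/c mice, at 94 and 188 counts.

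Krt13, a keratin of moist stratified epithelia, and Krt36, a hair and nail keratin, were higher in D2.1 than in D2A1 cells in culture. Their culture and tumor levels come from separate tables and are given side by side only. Krt13 was at 11.6 ± 5.37 CPM in D2.1 and 0.132 ± 0.068 CPM in D2A1 culture (SD, n = 3, log2 6.41, adjusted p = 4.6e-05). It averaged 0.047 CPM in the D2.1 tumors from BALB/c hosts and 0.875 CPM in those from SCID-beige hosts, where tumor 4 held 57 counts. Krt36 was at 15.9 ± 3.21 against 0.700 ± 0.444 CPM in culture (SD, n = 3, log2 4.51, adjusted p = 4.1e-05) and had at most 2 counts in any tumor. Krt76, a keratin of the palate and stratified epithelia, was found in D2A1 tumors, at means of 1.64 CPM in BALB/c and 1.93 CPM in SCID-beige mice. D2.1 tumors had at most 3 counts of it and all culture libraries 0. Krt20, Krt79, Krt1, Krt77, Krt6a and Krt6b reached a mean of 1 CPM only in a group of D2.1 tumors. Some of these means rest on 1 or 2 tumors. Krt20 averaged 1.74 ± 3.46 CPM (SD) in D2.1 tumors of SCID-beige mice, with 133 counts in tumor 4 and 0 in the lowest. In BALB/c hosts, Krt1 and Krt77 had counts only in D2.1 tumors 1 and 4. Keratins are similar in sequence, and how reads shared between family members were counted is not given in the sources used here.

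Genes of desmosomes, the junctions to which keratin filaments are tied, were called in either direction at 81.2% of those tested in culture, 38.9% in BALB/c tumors and 44.4% in SCID-beige tumors, where 44.9%, 32.6% and 32.1% of all genes were. Of 27 listed, 16 passed the filter in culture, of which 10 were higher in D2.1 and 3 lower, 18 in BALB/c tumors (6 and 1, near the share of all genes) and 18 in SCID-beige tumors (6 and 2). Their median log2 fold changes were 0.95, 0.34 and 0.41, against -0.02, -0.02 and 0.02 over all genes tested. Pkp1, plakophilin 1, was higher in D2.1 in culture (322 ± 16.8 against 15.1 ± 5.12 CPM, SD, n = 3) and in SCID-beige tumors (364 ± 116 against 76.3 ± 14.4 CPM, SD, n = 5). Ppl, periplakin, and Dsp, desmoplakin, which links filaments to the junction, were also higher in culture (log2 4.11 and 3.78). In tumors Ppl was higher by 4.12 and 3.95 log2 units and Pkp3 by 1.59 and 2.29 in BALB/c and SCID-beige mice.

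Genes of other epithelial junctions and surfaces had 4 higher and 4 lower of 11 in culture (72.7% called), 4 and 1 of 18 in BALB/c tumors (27.8%, below the share of all genes) and 4 and 2 of 12 in SCID-beige tumors (50%). Cdh1, E-cadherin, was higher in D2.1 in culture (31.1 ± 5.76 against 1.39 ± 0.477 CPM, SD, n = 3) and in BALB/c tumors (23.9 ± 5.85 against 7.13 ± 1.26 CPM, SD, n = 4). Epcam was higher in D2.1 tumors of SCID-beige mice (log2 1.92, adjusted p = 0.0054). Among epithelial transcription and splicing factors, 6 were higher and 2 lower of 10 in culture (80.0%), 5 and 1 of 15 in BALB/c tumors (40.0%), and 4 and 0 of 8 in SCID-beige tumors (50%). Gata3, the luminal mammary factor, was higher by 3.61, 4.05 and 3.996 log2 units in these settings. Of the 15 other intermediate filament genes, 2 were higher and 1 lower of 6 tested in culture (50%), 4 and 1 of 8 in BALB/c tumors (62.5%) and 3 and 1 of 9 in SCID-beige tumors (44.4%). Nes, which encodes nestin, was higher by 2.62, 2.75 and 2.72 and Lmnb1, lamin B1, lower, at -0.80, -1.09 and -0.85.

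Within the 4 tumor groups, the keratins did not vary as 1 set. After group means were taken off, the deviations of Krt7 and Krt19 over the 18 tumors had a Pearson r of 0.846, those of Krt18 and Krt19 0.747 and those of Krt8 and Krt18 0.603, while Krt5 and Krt14 stood at 0.246. The genes most like Krt18 were Cystm1 (0.918), Rtn2 (0.899) and Slc1a5 (0.893), and those most like Krt8 were Upf1, Lingo3 (0.837 each) and Itpk1 (0.832). For Krt14 they were Timp1 (0.862), Pabpc1l (0.850) and Tars (0.843), and for Krt5 Serpinb6b (0.835), C030006K11Rik (0.833) and Rem1 (0.825). These values describe 18 libraries that share hosts and preparation, and how far single tumors carry them was not tested. Tumor 4 of D2.1 in SCID-beige mice held the most Krt8, Krt18, Krt19 and Krt17 of its group, and its skeletal muscle markers summed to 353 CPM, against 3.25 to 292 CPM in the other D2.1 tumors of SCID-beige mice. The part of adjoining tissue in these values was not tested.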

How the data were processed

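The authors sequenced total RNA (Novogene) of cultured cells and of individual snap-frozen tumors. The submitters' processing notes name STAR and mm10, and the counting program, its annotation and its use of strand are not given in the sources used here. The deposited files hold raw counts per gene and FPKM values made by the authors, in separate tables for cells and tumors. FPKM followed from the counts for 100% of genes (within 0.1%), but the gene length behind it was the same in both tables (within 1%) for only 24.8% of 19189 genes, so tests stayed within a table except for line by setting interactions on the joined counts.

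Symbols came from GENCODE M21 (0.0969% of cell counts and 0.00594% of tumor counts had no match). Counts were tested with edgeR 4.0.16 (TMM, filterByExpr with a minimum count of 10, robust quasi-likelihood fit, Benjamini-Hochberg adjusted p under 0.05 over all genes tested), each comparison on its own libraries. SE was the log2 fold change over the root of F. Ratios of FPKM used a pseudocount of 0.1 and an exact permutation test. The labels do not say that culture libraries came from separate cultures, so those p-values may measure technical spread only. No 2 replicates agreed within sampling noise (38 pairs, chi-square per degree of freedom 4.96 to 117).

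All 10 keratins were named, with every other keratin at a mean of at least 1 CPM in a group, up to 3 called genes per list with the largest change at 5 CPM or more in the higher group, and the 3 protein-coding genes most correlated with Krt8, Krt18, Krt14 and Krt5. A gene that this rule names is not reported here. The members and lists were chosen with earlier results of these data known. Same-numbered libraries deviated together in culture (r = 0.184 to 0.491) and in BALB/c tumors (r = 0.1004 to 0.491), by the data and not by the labels. In SCID-beige tumors r ran from -0.16 to 0.344, and between hosts from -0.44 to 0.17. No main test paired the libraries, and the replicate number entered only as a block among the alternatives. On simulated counts with 200 genes changed by a log2 of 2, 96.5% to 100% were recovered, and 0.995% to 6.604% of the calls were false. The changed genes were drawn from those with higher counts, and all genes had the same simulated spread. The rates therefore do not carry over to keratins with few counts or a wide spread. Alternatives were DESeq2 1.42.0, its size factors, other filters, a fold threshold, a replicate block and leaving out libraries.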

Additional observations from a re-analysis of the deposited data

Results flagged for a closer look

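A value far from the others was found in 6 of 44 sets of 4 or 5 tumors that were checked. A set was a keratin, or the Krt8 to Krt18 ratio, in a group. All 6 were highest values. A rate of about 1 in 20 by chance assumes independent, normally distributed values. The sets share tumors, so no excess over chance is read from the 6. In D2.1 tumors of SCID-beige mice, tumor 4 held 944 CPM of Krt8 (276 to 463 CPM in the others), 171 CPM of Krt18 (12.8 to 51.3 CPM) and 2.98 CPM of Krt17 (0.117 to 0.403 CPM). Tumor 3 of that group held 335 CPM of Krt14 (63.4 to 83.9 CPM in the others). Among the D2.1 tumors from BALB/c hosts, tumor 4 held 140 CPM of Krt14 (24.7 to 40.4 CPM). In D2A1 tumors of SCID-beige mice, tumor 1 held 2.41 CPM of Krt17 (0.208 to 0.766 CPM), beside 22 counts of Krt1.

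The difference between the lines itself differed between tumors and culture, by the interaction test, for Krt8 (log2 -3.549 with SCID-beige and -3.755 with BALB/c tumors) and for Krt18 (-5.119 and -5.879). For Krt10 it differed with BALB/c tumors (10.65), where D2.1 tumors 1 and 4 held 10.6 and 50.8 CPM and tumors 2 and 3 held 0 and 0.116 CPM.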

How the results depend on the processing

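Calls for Krt8, Krt14, Krt18 and Krt80 between the lines were kept in all settings under every alternative that gave a value, except that Krt8 in BALB/c tumors (log2 0.90) is under a fold threshold of log2 1. DESeq2 gave no adjusted p for Krt14 in SCID-beige tumors. That threshold lowered the genes called between lines to 2786 in culture, 2939 in BALB/c and 2610 in SCID-beige tumors. Calls between hosts were unstable. In D2.1 tumors they numbered 461 by DESeq2, 275 with no filter, 14 with the replicate block, 11 without D2.1 BALB/c tumors 1 and 4, and 26 to 314 when 1 library was left out (fewest without BALB/c tumor 1, most without tumor 2). In D2A1 tumors they numbered 565 by DESeq2, 0 with the block, and 27 to 172 when 1 library was left out (fewest without D2A1 BALB/c tumor 4). For the line by host interaction they numbered 102 by DESeq2, 6 with its size factors, 7 with no filter, 0 without tumors 1 and 4, and 0 to 12 when 1 library was left out (most without D2.1 SCID-beige tumor 4).

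The Krt8 to Krt18 ratio kept its direction. In BALB/c tumors the log2 difference was 4.217 to 4.943 with 1 tumor left out and 5.362 without tumors 1 and 4, where no permutation can reach the threshold. With the replicate block it was 4.655 in BALB/c and 4.304 in SCID-beige tumors (adjusted exact permutation p = 0.188 in each). The block ended the call of Krt5 in BALB/c tumors, which was also lost with no filter (adjusted p = 0.122), and that of the Krt10 line by setting interaction, and it brought the Krt15 interaction with SCID-beige tumors past the threshold (adjusted p = 0.045). It changed no other call of a keratin. The main tests took no libraries as pairs in any comparison.

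Directions that turned were of values not called by the main test. In BALB/c tumors without D2.1 tumors 1 and 4, the line difference was -1.02 for Krt7, -1.02 for Krt19 and -4.93 for Krt10. With the replicate block it was -0.062 for Krt7 and -0.060 for Krt19. With 1 library left out it ran from -0.38 to 0.58 for Krt7 and from -0.27 to 0.73 for Krt19 there, and from -0.93 to 0.19 for Krt7 in SCID-beige tumors. The host difference in D2.1 was -0.026 for Krt80 without tumors 1 and 4, and with 1 library left out it ran from -1.33 to 0.17 for Krt18. In D2A1 it ran from -0.064 to 0.38 for Krt10, -0.46 to 0.048 for Krt14, -0.20 to 0.072 for Krt18 and -0.27 to 0.063 for Krt80. The line by host interaction without tumors 1 and 4 was -0.93 for Krt5, -0.77 for Krt7, -0.78 for Krt10, -1.24 for Krt15, -0.51 for Krt17 and -0.52 for Krt19. With 1 library left out it ran from -0.17 to 1.10 for Krt7, -0.39 to 0.16 for Krt8 and -1.25 to 0.21 for Krt18. The line by setting interaction of Krt80 with BALB/c tumors was -0.60 without tumors 1 and 4, and ran from -0.24 to 0.44 with 1 library left out. The causes were not tested. Line by setting values of Krt5 and Krt17 were fitted but are not given, since both lines were at or under 3 counts in culture. At these depths Krt5, Krt7, Krt15, Krt17 and Krt19 in culture rest on few counts or none in 1 line or both.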
